A study of Mus musculus with 6 samples.

Results

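Integrin alpha6beta4, its laminin ligands and the hemidesmosome were represented by 9 genes among the 18191 genes measured in whole mouse aorta: *Itgb4*, *Itga6*, *Cd151*, *Plec*, *Dst*, *Col17a1*, *Lama3*, *Lamb3* and *Lama5*. The genes were chosen by name, with earlier results of these data known, and matched by their NCBI gene identifier with no threshold on measured values, and all 9 were found. The question was whether the partners of the beta 4 subunit followed *Itgb4* when 1 copy of *Npr1* was disrupted. *Itgb4* itself had been singled out by the study from these same libraries, so its own difference is described here and is not independent evidence.

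Integrins are cell surface receptors built of an alpha and a beta chain. The beta 4 chain pairs with alpha 6 alone, binds laminins of the basement membrane, and has an unusually long cytoplasmic tail that can hold plectin and, with it, intermediate filaments. In stratified epithelia this integrin is the core of the hemidesmosome, a rivet of alpha6beta4, plectin, dystonin, collagen XVII and the tetraspanin CD151 on a bed of laminin-332. In vessels, alpha6beta4 is known from endothelial cells, while the laminin of mature endothelial basement membranes is mostly built on the alpha 4 and alpha 5 chains.

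RNA was sequenced from whole aortas of male mice, in 3 libraries of WT mice and 3 libraries of *Npr1*+/- mice, which are heterozygous for an *Npr1* knockout made with CRISPR-Cas9. *Npr1* encodes natriuretic peptide receptor 1. The age and strain of these mice are not given in the sources used here, and the labels number the libraries 1 to 3 in each genotype without saying whether each is a separate animal, so p-values measure only the spread between these libraries. Because whole aorta was used, a change in the number of cells of a type and a change in RNA per cell cannot be told apart.

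Estimated counts summed to between 13510970 and 16664343 per library. *Npr1* stood at 112.43, 153.33 and 151.51 FPKM in WT and at 70.35, 109.92 and 132.95 FPKM in *Npr1*+/- libraries 1, 2 and 3 (FPKM are fragments scaled by transcript length and library size), lower in each of the 3 same-numbered pairs but overlapping between the groups. The libraries numbered 1 of both genotypes stood apart from the other 4 on the first principal component, which held 59.3% of the variance. In edgeR, 0 of 13938 tested genes (0%) passed both thresholds for a call, which were 0.05 for the adjusted p and 0.5 for the absolute log2 fold change. At an unadjusted p under 0.05, 262 genes (1.88%) were higher and 150 (1.08%) lower in *Npr1*+/-, and DESeq2 called 15 of 18033 genes (0.0832%). CPM are counts scaled by library size and by the TMM normalisation factor that edgeR gives each library. The CPM of the groups did not overlap in 544 genes that were higher (3.9%) and 499 that were lower (3.58%).

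In WT aorta the 9 genes spanned a wide range of levels per length. *Cd151*, a tetraspanin that binds laminin-binding integrins, was highest, with a mean of 152 ± 10.4 FPKM (SD, n = 3). It was followed by the cytolinker dystonin, *Dst*, at 53.8 ± 15.4 FPKM, the laminin alpha 5 chain, *Lama5*, at 30.7 ± 9.16 FPKM and plectin, *Plec*, at 22.8 ± 5.19 FPKM. The 2 integrin subunits came next, *Itga6* at 5.12 ± 1.26 FPKM and *Itgb4* at 2.67 ± 0.125 FPKM. The epithelial laminin and collagen genes were lowest, with *Lama3* at 0.67 ± 0.141, *Lamb3* at 0.247 ± 0.202 and *Col17a1* at 0.0133 ± 0.0153 FPKM. The ranges of neighbours in this order overlapped between *Dst* and *Lama5* and between *Lama5* and *Plec*, although the upper gene of each of these pairs was above the lower one in 3 of 3 WT libraries. All other neighbours were separated in WT, and the means of the *Npr1*+/- libraries had the same order. Of the laminin chains, *Lama5* was thus high per length, whereas *Lama3* and *Lamb3*, like *Col17a1*, did not exceed 1.01 FPKM in any library.

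**Figure D1:**
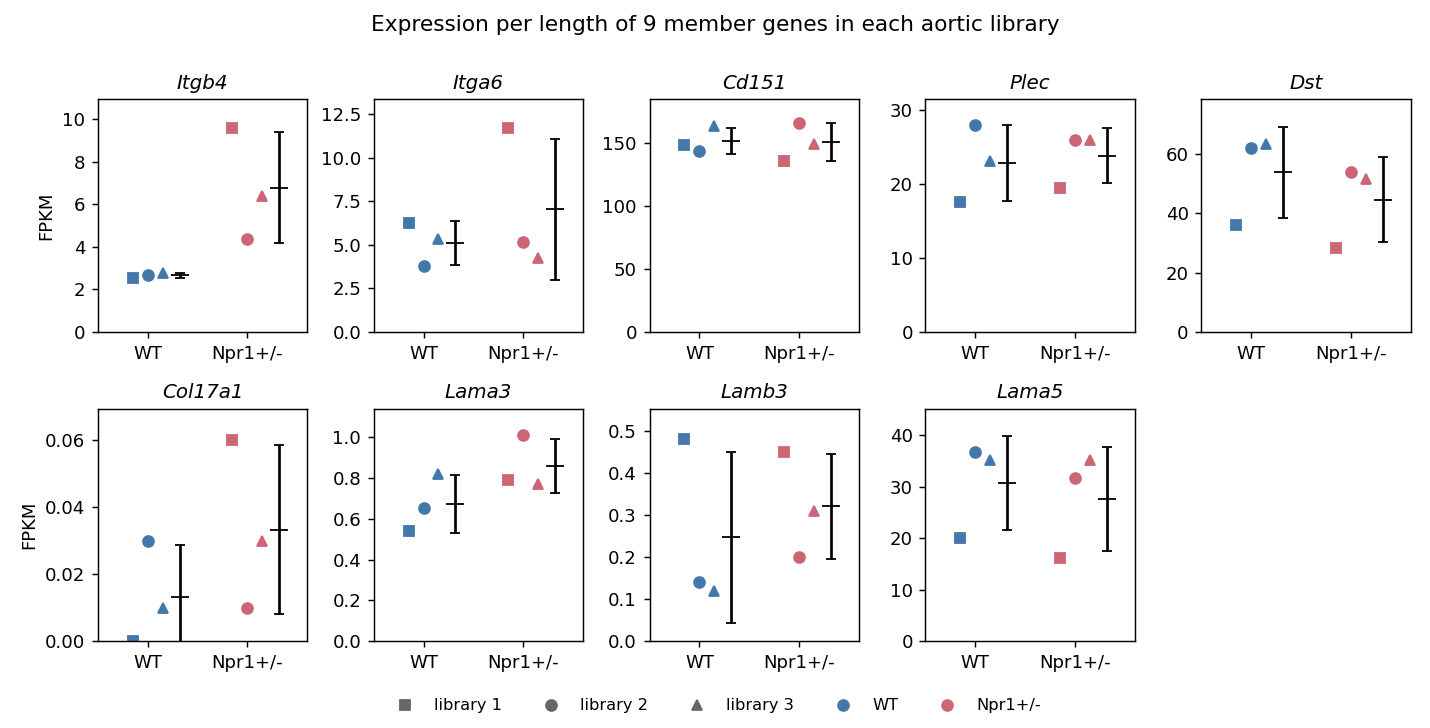
FPKM of the 9 genes in the 6 libraries, with each vertical axis starting at 0. Squares, circles and triangles are the libraries numbered 1, 2 and 3, and black bars are the mean ± SD of 3 libraries (the bar of Col17a1 in WT is cut at 0). In the Itgb4 panel all Npr1+/- libraries (4.38 to 9.57) lie above all WT libraries (2.54 to 2.79).

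The promoters of the most abundant member, of the abundant laminin chain and of the least abundant member are shown because they stand for high and low levels per length. The sequences are from RefSeq on GRCm38.p6, run 5′ to 3′ from 250 bases before to 50 bases after the start of the gene, and have CG dinucleotides in capitals.
Cd151, plus strand, chr7:141467112-141467411: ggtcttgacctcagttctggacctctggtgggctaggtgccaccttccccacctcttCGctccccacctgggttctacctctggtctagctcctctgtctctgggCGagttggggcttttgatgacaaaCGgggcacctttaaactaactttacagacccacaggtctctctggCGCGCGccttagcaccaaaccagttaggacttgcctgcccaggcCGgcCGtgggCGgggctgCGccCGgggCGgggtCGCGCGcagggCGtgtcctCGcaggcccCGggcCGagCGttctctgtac
Lama5, minus strand, chr2:180225810-180226109: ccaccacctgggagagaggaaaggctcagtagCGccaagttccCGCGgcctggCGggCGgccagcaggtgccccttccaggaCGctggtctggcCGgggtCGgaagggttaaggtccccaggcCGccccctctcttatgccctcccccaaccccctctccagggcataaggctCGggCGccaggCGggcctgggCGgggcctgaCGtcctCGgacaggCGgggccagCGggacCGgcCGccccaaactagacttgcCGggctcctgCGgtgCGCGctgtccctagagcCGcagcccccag
Col17a1, minus strand, chr19:47691993-47692292: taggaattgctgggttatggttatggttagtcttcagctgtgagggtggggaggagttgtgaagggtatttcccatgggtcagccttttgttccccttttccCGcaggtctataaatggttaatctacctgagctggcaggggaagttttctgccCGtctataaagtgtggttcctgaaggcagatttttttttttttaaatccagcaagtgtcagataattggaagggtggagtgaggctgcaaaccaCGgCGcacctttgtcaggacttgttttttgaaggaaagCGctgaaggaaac
These windows held 20, 24 and 5 CG dinucleotides, against a median of 7 over 32851 promoters of the same length, of which 73.5%, 80% and 38% held fewer. The GC box (GGGCGG on either strand, which itself holds a CG) was found in the windows of *Cd151* and *Lama5*, and in 35.7% of all promoters. The motif of the TATA box (TATAAA on either strand, at any position in the window) was found only in that of *Col17a1* among the 3, and in 13.6% of all promoters. The distance of the motif from the start of the gene was not considered. In the same table, *Cd151* had a second start with 4 CG and without a GC box, *Dst* had a CG-rich start with 31 CG and a second start with 6, and *Lamb3* had starts with 2 and 5. The table matched 5 of the 9 genes, which did not include *Itgb4*, *Itga6*, *Plec* and *Lama3*.

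*Itgb4* (NCBI gene 192897, GRCm38 chromosome 11 from 115974709 to 116008412) alone among the 9 genes had no overlap between the libraries of the genotypes, where 3.9% of all tested genes were higher without overlap. It stood at 2.54, 2.67 and 2.79 FPKM in WT and at 9.57, 4.38 and 6.37 FPKM in *Npr1*+/- libraries 1, 2 and 3. The WT libraries were nearly equal, whereas the *Npr1*+/- libraries spread more than 2-fold, with library 1 highest. The means were 2.67 ± 0.125 and 6.77 ± 2.62 FPKM (SD, n = 3), and by CPM the same-numbered libraries differed 3.9-fold, 1.7-fold and 2.17-fold. The log2 fold change was 1.36 ± 0.29 (SE, edgeR quasi-likelihood test), with an unadjusted p = 0.0025 and an adjusted p = 0.999, so that the gene was not called. The 262 genes that were higher at an unadjusted p under 0.05, 1.88% of those tested, included 1 of the 8 members tested, which was *Itgb4*.

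*Itgb4* was called by 1 of the alternative fits, that of DESeq2 with the libraries paired by number, a pairing that the labels do not state. With the replicate block, its log2 fold change was 1.28 ± 0.22, with an adjusted p = 0.116 in edgeR, and 1.28 ± 0.25 with an adjusted p = 0.000158 in DESeq2, which called it. DESeq2 with the block called 268 of 13548 genes (1.98%), and *Itgb4* was the only member among them. DESeq2 without the block gave an adjusted p = 0.053. Without both libraries numbered 1, the log2 fold change in edgeR was 0.96 ± 0.18 (unadjusted p = 0.00131, adjusted p = 0.2).

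*Itga6* (NCBI gene 16403, chromosome 2 from 71745616 to 71858416), the only alpha chain that pairs with beta 4 and also a partner of beta 1, did not separate the genotypes. Its libraries stood at 6.25, 3.77 and 5.35 FPKM in WT and at 11.69, 5.16 and 4.24 FPKM in *Npr1*+/-. *Npr1*+/- library 1 was far above the other 5, and libraries 2 and 3 lay within the WT range. The log2 fold change was 0.49 ± 0.42 (edgeR, unadjusted p = 0.283, adjusted p = 0.999). It was 0.05 ± 0.21 without both libraries numbered 1 and -0.13 without *Npr1*+/- library 1 alone, so its size and its sign rested on that library. By CPM, *Itga6* was at 0.766 times the WT value in the third pair, where *Itgb4* was at 2.17 times.

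*Cd151* (NCBI gene 12476, chromosome 7 from 141467392 to 141471473) was nearly level across the study. It stood at 148.36, 143.10 and 163.14 FPKM in WT and at 135.71, 166.01 and 149.42 FPKM in *Npr1*+/-, and the groups overlapped fully. Its log2 fold change was -0.01 ± 0.16 (edgeR, adjusted p = 1), the smallest of the 8 members tested, and its sign turned when single libraries were left out.

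The cytolinkers showed no separation either. *Plec* (NCBI gene 18810, chromosome 15 from 76170974 to 76232574), which ties the beta 4 tail to intermediate filaments, stood at 17.54, 27.91 and 23.03 FPKM in WT and at 19.49, 25.98 and 25.93 FPKM in *Npr1*+/-. *Dst* (NCBI gene 13518, chromosome 1 from 33908225 to 34308661), whose epithelial isoform BPAG1e sits in hemidesmosomes and whose other isoforms serve muscle and nerve, stood at 36.04, 62.01 and 63.26 FPKM in WT and at 28.26, 53.99 and 51.58 FPKM in *Npr1*+/-. Both were lowest in the libraries numbered 1 within each genotype, and the groups overlapped. The log2 fold change of *Plec* was 0.07 ± 0.23 (edgeR, adjusted p = 0.999). That of *Dst* was -0.28 ± 0.35 (edgeR, unadjusted p = 0.45, adjusted p = 0.999), although *Dst* was lower in each of the 3 same-numbered pairs, by CPM at 0.821, 0.884 and 0.769 times the WT value. The log2 fold change of *Dst* was -0.06 without *Npr1*+/- library 1 and -0.51 without WT library 1, and that of *Plec* turned to -0.10 without WT library 1. The deposited values are summed over the isoforms of a gene, so the epithelial form of *Dst* was not measured on its own.

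*Col17a1* (NCBI gene 12821, chromosome 19 from 47646344 to 47692094), the transmembrane collagen of hemidesmosomes, had 0, 3 and 1 estimated counts in WT and 5, 1 and 3 in *Npr1*+/- libraries. At a floor of 3 counts per library, it reached the floor only in WT library 2 and in *Npr1*+/- libraries 1 and 3. It was removed by the low-count filter, and no fold change is given. Krt5 and Krt14, keratins that hemidesmosomes anchor in the basal epidermis, were under 3 counts in all 6 libraries. The summed CPM of 11 epithelial and keratinocyte markers lay between 11.1 and 15.7 in WT and between 9.83 and 14 in *Npr1*+/-. The sum thus overlapped between the genotypes. Its largest single part in each library was *Krt18*, at 48 to 175 counts (log2 fold change -0.56), lowest in *Npr1*+/- library 1. The sum therefore does not show how the other markers of the list moved. *Cdh1*, at 7 to 26 counts, and *Krt7*, at 10 to 30 counts, were higher in *Npr1*+/- without overlap, as were 3.9% of all tested genes. The part of these markers in the *Itgb4* result was not tested.

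The laminin-332 genes *Lama3* and *Lamb3* were low throughout. *Lama3* (NCBI gene 16774, chromosome 18 from 12333819 to 12583013), its alpha chain, stood at 0.54, 0.65 and 0.82 FPKM in WT and at 0.79, 1.01 and 0.77 FPKM in *Npr1*+/-. *Lamb3* (NCBI gene 16780, chromosome 1 from 193207699 to 193343878), its beta chain, had 26, 9 and 8 estimated counts in WT and 26, 13 and 19 in *Npr1*+/-. The groups of both genes overlapped, and the libraries numbered 1 were highest for *Lamb3* in each genotype. The log2 fold changes were 0.45 ± 0.27 for *Lama3* and 0.41 ± 0.63 for *Lamb3* (edgeR, adjusted p = 0.999 for each). *Lama3* was higher in 2 of 3 pairs, and its log2 fold change was 0.27 without WT library 1. For *Lamb3*, the value without both libraries numbered 1 was 0.94 ± 0.53, more than 1.5 times that over all libraries. Leaving out single libraries gave values from 0.05 (without *Npr1*+/- library 1) to 1.28 (without WT library 1). The size of its change was thus not determined by these libraries, which held 8 to 26 counts of it.

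*Lama5* (NCBI gene 16776, chromosome 2 from 180176373 to 180225859), the alpha chain of laminin-511 and a ligand of alpha6 integrins in vessels, stood at 20.13, 36.68 and 35.21 FPKM in WT and at 16.24, 31.59 and 35.22 FPKM in *Npr1*+/-. The libraries numbered 1 were at 56% and 48.6% of the mean of the other 2 libraries of their genotype, a gap larger than that between the genotypes. The log2 fold change was -0.15 ± 0.35 (edgeR, adjusted p = 0.999). By CPM, *Lama5* was at 0.843, 0.891 and 0.949 times the WT value in the 3 pairs, but by FPKM the third pair was level, and its log2 fold change was 0.10 without *Npr1*+/- library 1.

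Over the 8 members tested, 5 had a positive and 3 a negative log2 fold change, with a median of 0.24, against a median of 0.01 and 51.6% positive over all tested genes. These values include *Itgb4* itself, so they do not describe its partners alone. Of the partners tested, *Itga6*, *Lama3*, *Lamb3* and *Plec* were positive and *Cd151*, *Lama5* and *Dst* negative, from -0.28 to 0.49. With the replicate block, 1 of the 8, *Itgb4*, had an unadjusted p under 0.05 in edgeR, where 12.4% of all tested genes did.

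**Figure D2:**
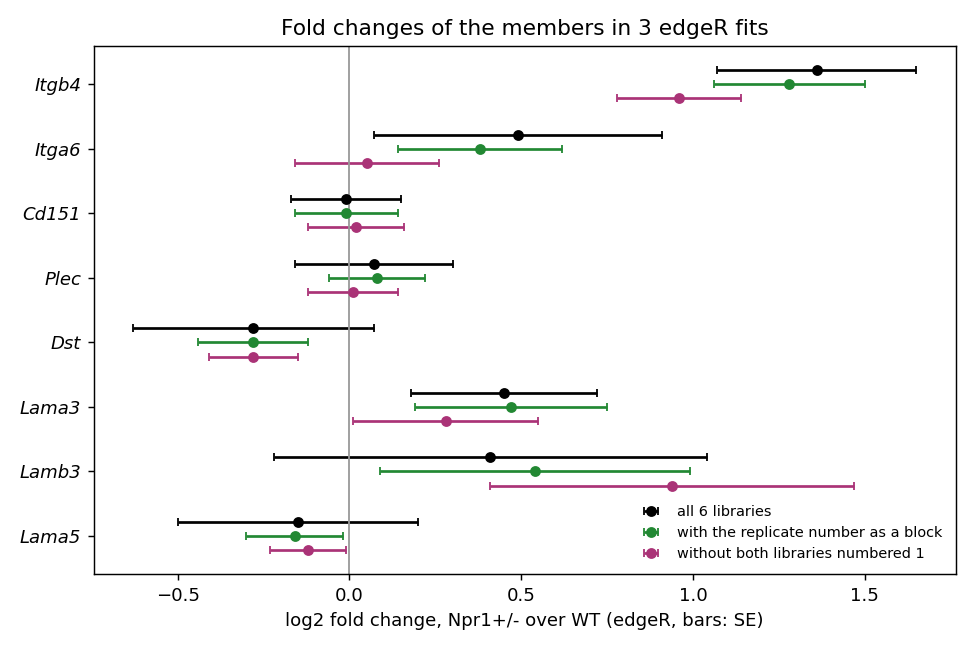
Log2 fold changes of 8 genes (points) with their standard errors (bars) from edgeR, in all 6 libraries, with the replicate number as a block, and without both libraries numbered 1. Itgb4 stays at 0.96 or above in the 3 fits, while Itga6 moves from 0.49 to 0.05.

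Whether a partner moved as *Itgb4* did was also asked within each library, by the log2 ratio of *Itgb4* to the partner. Relative to *Itga6*, *Itgb4* stood at 0.406, 0.708 and 0.521 by FPKM in WT and at 0.819, 0.849 and 1.5 in *Npr1*+/-, so that the beta 4 subunit was below the alpha 6 subunit in all WT libraries and exceeded it in *Npr1*+/- library 3. These groups did not overlap, and the log2 ratio differed by 0.91 (exact two-sided permutation test, p = 0.1, the smallest that 3 libraries against 3 can give, and 0.133 after Benjamini-Hochberg adjustment over the 8 partners). The difference was 1.28 against *Cd151*, 1.19 against *Plec*, 1.56 against *Dst* and 1.44 against *Lama5*, each without overlap and with the same exact p = 0.1 and adjusted value of 0.133. Without *Npr1*+/- library 1 these differences were 0.93, 0.77, 0.98 and 0.81.

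Against the sparse epithelial genes the separation was less clear. The log2 ratio to *Lamb3* differed by 0.76 without overlap (exact p = 0.1), but by FPKM the ratios were 5.29, 19.1 and 23.2 in WT and 21.3, 21.9 and 20.5 in *Npr1*+/-, which overlapped. It rested on WT library 1, without which it was 0.18 (0.15 without both libraries numbered 1). The log2 ratio to *Lama3* differed by 0.81 and that to *Col17a1* by 0.63, both with overlapping groups (exact p = 0.2, adjusted 0.2). They were 0.51 for *Lama3* without *Npr1*+/- library 1 and 0.29 for *Col17a1* without WT library 2. In all, 6 of the 8 ratios did not overlap on the log2 CPM scale, and this exact test cannot bring any of them under 0.1. The 8 ratios share the same *Itgb4* values, which separate the genotypes by themselves and for which the gene had been singled out, so the ratios restate that difference in large part and their p-values are not independent evidence.

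**Figure D3:**
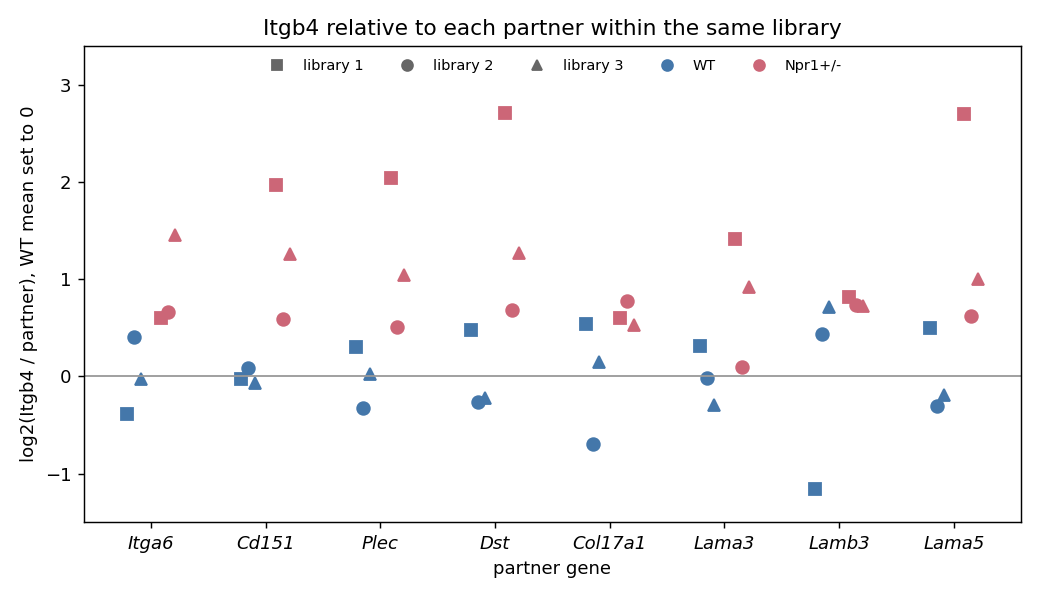
Log2 ratio of Itgb4 to each of 8 partners in the same library, from normalised CPM with a prior count of 2, with the WT mean of each ratio set to 0. The Npr1+/- libraries lie above all WT libraries for 6 partners and overlap with WT for Col17a1 and Lama3.

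The 5 genes whose pattern over the 6 libraries was nearest to that of *Itgb4*, by the root mean square difference of centred log2 CPM, were none of the partners. *Vil1*, which encodes the actin-bundling protein villin, was nearest at 0.19. It was followed by *Cfap100* at 0.22, *Cyp2j9* at 0.23, *Dkk1*, a secreted inhibitor of Wnt signalling, at 0.24 and *Cadps2* at 0.25. Each of these 5 genes was below *Itgb4* in every library. *Vil1* lay at 0.10 to 0.49 FPKM, *Dkk1* at 0.13 to 1.00, *Cadps2* at 0.40 to 1.07, *Cfap100* at 0.40 to 1.16 and *Cyp2j9* at 1.12 to 4.34. Among the partners, *Itga6* and *Lama3* were nearest, each at 0.58, which placed them at ranks 930 and 968 of 13937 genes. *Lamb3* was at 0.70, *Cd151* at 0.76 and *Plec* at 0.77, against a median of 0.76 over all genes, and *Lama5* and *Dst* were farther than most, at 0.99 and 1.01. This likeness is a description over 6 libraries that share the difference in *Itgb4* between genotypes and the gap of *Npr1*+/- library 1.

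The summed level of the endothelial marker genes was also higher in *Npr1*+/-. The summed CPM of 11 endothelial markers was 908, 623 and 1017 in WT and 1657, 1202 and 1098 in *Npr1*+/-, without overlap, and 10 of the 11 were highest in *Npr1*+/- library 1. By gene, 0 of the 11 were called in edgeR, as were 0% of all tested genes. A positive log2 fold change was found in 10, against 51.6% of all tested genes, and 5 were higher without overlap, against 3.9%. The transcription factor *Erg* had a log2 fold change of -0.32. Per 1000 CPM of these markers, *Itgb4* stood at 17.2, 25.8 and 17.3 CPM in WT and at 36.7, 22.8 and 34.8 CPM in *Npr1*+/-. On this scale the groups overlapped, because *Npr1*+/- library 2 was below WT library 2. The difference of mean log2 values was 0.64 (exact two-sided permutation test, p = 0.2). The unscaled 1.36 is a fold change fitted by edgeR, so the gap between 0.64 and 1.36 mixes the scaling with a change of measure. By FPKM, an unscaled difference of mean log2 values was 1.24 (limma on log2(FPKM + 0.1)), nearer to 1.36 than to 0.64. *Itga6* per 1000 endothelial CPM was 40.4, 34.9 and 31.8 in WT and 43.4, 25.9 and 22.6 in *Npr1*+/-, a log2 difference of -0.27 (exact p = 0.5), the opposite sign to its unscaled value. *Nos3*, an endothelial marker that makes nitric oxide and was chosen here after its values were seen, was at 62, 67.3 and 59.7 in WT and at 82.6, 105 and 91.8 in *Npr1*+/- on the same scale, whereas *Pecam1* overlapped with a log2 difference of 0.02. Unlike *Itgb4* and *Itga6*, both genes are part of the 11-marker sum, so their values on this scale are partly built in. *Pecam1* alone made up 285 to 392 of each 1000 CPM. The part of endothelial content in the *Itgb4* result beyond this scaling was not tested.

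**Figure D4:**
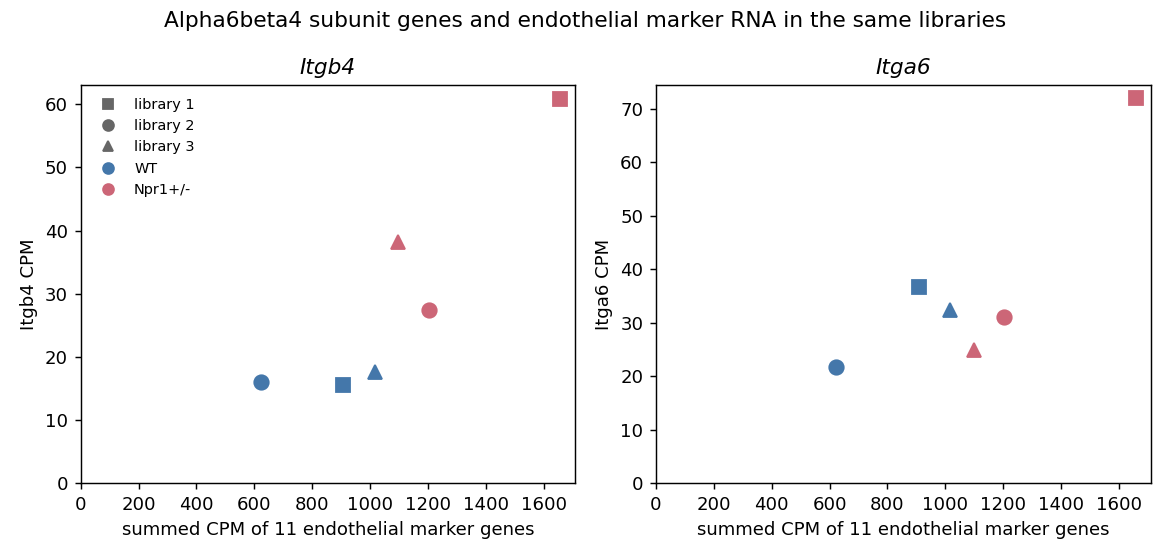
CPM of Itgb4 (left) and Itga6 (right) against the summed CPM of 11 endothelial marker genes in each of the 6 libraries, all axes starting at 0. Npr1+/- library 1 is highest on every axis, and the endothelial sums of the Npr1+/- libraries (1098 to 1657) lie above those of WT (623 to 1017).

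Other cell types that can carry alpha6beta4 were also looked at. The summed CPM of 8 mesothelial markers was 5.83, 6.66 and 4.26 in WT and 25.4, 6.9 and 10.2 in *Npr1*+/-, higher without overlap. Of these 8 genes 2 passed the filter on low counts. *Gpm6a* alone did not overlap, with 53, 76 and 47 counts in WT and 195, 83 and 125 in *Npr1*+/-, where 3.9% of all tested genes were higher without overlap. This gene held most of the counts of the list in each library, so the separation of the sum rested largely on it. The part of this list in the *Itgb4* result was not tested. The 10 Schwann cell markers, from a cell type that uses this integrin in peripheral nerve, summed to 217, 256 and 232 CPM in WT and to 447, 213 and 246 CPM in *Npr1*+/-, so that library 1 alone stood out. Perineurial markers lay between 61.1 and 78.6 CPM in WT and between 50.5 and 72.3 CPM in *Npr1*+/-. Neuronal markers reached 621 CPM in *Npr1*+/- library 1 and did not exceed 98.2 CPM in the other 5 libraries.

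The remaining marker lists overlapped between the genotypes. Smooth muscle markers summed to 21194 CPM in WT library 1 and to 13093 in *Npr1*+/- library 1, against at least 33859 in the other 4 libraries, and *Dst*, *Lama5* and *Plec* were also lowest in the libraries numbered 1. Adipocyte markers went the other way, at 3859 and 5166 CPM in the libraries numbered 1 and at most 1418 in the other 4. Lymphatic endothelial markers lay between 51.8 and 163 CPM, fibroblast markers between 2259 and 4254 CPM and macrophage and leukocyte markers between 135 and 307 CPM over all 6 libraries. The part of these cell types in the values of the members was not tested.

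Around the members, 53 further genes of the same pathway were described in 7 lists, of which 51 were tested, 16 with a positive and 35 with a negative log2 fold change and a median of -0.12. None was called by edgeR. At an unadjusted p under 0.05, 2 were higher (*Sdc1* and *Fyn*, against 1.88% of all genes) and 1 was lower (*Mmp2*, against 1.08%), and DESeq2 with the replicate block called 2, *Lamb1* and *Dsp*, where it called 1.98% of all genes. *Lamb1* was chosen for its values by that call and otherwise lies outside the rule for named genes.

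Of the other laminin chains, 2 of 6 tested had a positive value on the log2 scale, with a median of -0.23. The most abundant per length were *Lamb2*, the beta 2 chain of mature vessels, at 154 ± 38.9 FPKM in WT and 119 ± 36.5 in *Npr1*+/-, and *Lama4*, the main alpha chain of endothelial laminin beside alpha 5, at 39.4 ± 11.3 and 39.9 ± 5.11 FPKM. *Lamb1*, the beta 1 chain, stood at 17.81, 5.70 and 4.35 FPKM in WT and at 27.45, 11.05 and 8.50 FPKM in *Npr1*+/-, higher in 3 of 3 pairs but overlapping between the groups. Its log2 fold change was 0.85 ± 0.17 in DESeq2 with the block (adjusted p = 0.000127). In edgeR it was 0.79 ± 0.66 (adjusted p = 0.999), and 0.85 with the block (adjusted p = 0.0743). *Lama2* and *Lamc3*, named after their values were seen, were lower without overlap, where 3.58% of all genes were.

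Of the 7 other laminin receptors, 6 had a negative value on the log2 scale, with a median of -0.13. *Sdc1*, which encodes the heparan sulfate proteoglycan syndecan-1 and binds the tail of laminin-332, was the exception. It stood at 7.94, 10.68 and 9.40 FPKM in WT and at 11.21, 13.63 and 12.36 FPKM in *Npr1*+/-, with a log2 fold change of 0.41 ± 0.14 (edgeR, unadjusted p = 0.0268, adjusted p = 0.999), and its groups did not overlap, as in 3.9% of all genes. *Itgb1*, the beta 1 chain that competes with beta 4 for alpha 6, stood at 377 ± 90.1 FPKM in WT and at 304 ± 117 in *Npr1*+/- (log2 fold change -0.31 ± 0.38). *Rpsa*, the laminin receptor that is also a ribosomal protein, stood at 477 ± 111 and 464 ± 78.7 FPKM, and its value is uncertain because near-identical processed copies can share its reads.

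The other basement membrane proteins had 12 negative values among 14, with a median of -0.24. *Sparc*, a collagen-binding matrix protein, stood at 863 ± 124 FPKM in WT and at 768 ± 161 in *Npr1*+/-, and *Col18a1*, the collagen that releases endostatin, at 340 ± 97.2 and 267 ± 103 FPKM. Among the 5 other plakins the median was -0.11. *Macf1*, which links actin and microtubules, had a log2 fold change of -0.18 ± 0.26. *Dsp*, desmoplakin of the desmosome, stood at 11.04, 22.85 and 30.68 FPKM in WT and at 4.66, 16.31 and 13.25 FPKM in *Npr1*+/-, lower in 3 of 3 pairs with overlapping groups, and its log2 fold change was -0.99 ± 0.19 in DESeq2 with the block (adjusted p = 0.000127) and -0.94 ± 0.53 in edgeR (adjusted p = 0.999).

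The other tetraspanins tested had 3 positive values among 7, with a median of -0.12. Their most abundant members, *Cd9* and *Cd81*, had log2 fold changes of -0.27 ± 0.31 and -0.16 ± 0.17. By CPM, *Cd82* and *Tspan4*, named after their values were seen, were higher without overlap, where 3.9% of all genes were. By FPKM *Cd82* overlapped, at 11.15 to 13.05 in WT and 12.88 to 13.29 in *Npr1*+/- (log2 fold change 0.14 ± 0.12, edgeR). The 4 genes that process laminin-332 had a median of -0.20. *Bmp1*, a protease that trims laminin chains, had a log2 fold change of -0.11 ± 0.23, and *Mmp2*, a gelatinase that can cut laminin-332, stood at 40.67, 38.62 and 22.91 FPKM in WT and at 21.99, 25.41 and 23.16 FPKM in *Npr1*+/- (-0.52 ± 0.22, edgeR, unadjusted p = 0.0495, adjusted p = 0.999). The 8 signalling partners of alpha6beta4 had 5 positive values and a median of 0.09. *Shc1*, an adaptor that binds the phosphorylated beta 4 tail, was level at 41 ± 1.89 and 41.4 ± 3.53 FPKM. *Fyn*, a kinase of the Src family that can phosphorylate that tail, stood at 9.01, 8.21 and 7.06 FPKM in WT and at 11.10, 11.59 and 9.19 FPKM in *Npr1*+/- (log2 fold change 0.41 ± 0.16, edgeR, unadjusted p = 0.0385, adjusted p = 0.999).

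The length that RSEM's values imply for *Itgb4* lay between 6130 and 6236 bases over the 6 libraries, a range of 1.73%. That of *Lama3* ran from 5757 bases in WT library 1 to 6916 in *Npr1*+/- library 1, a range of 20.1%. The FPKM and CPM of *Lama3* therefore give different ratios between libraries. The exons of the protein-coding transcripts of the 9 genes shared 0 bases with those of other protein-coding genes in GENCODE M21.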

How the data were processed

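RNA-seq of whole aorta was analysed from 6 libraries, 3 of WT and 3 of *Npr1*+/- mice. The authors cleaned reads with SOAPnuke, mapped them with Bowtie2 to coding genes and quantified each gene with RSEM. The submitters' processing notes name mm10 and DESeq2 1.4.5, and the release of the gene set is not given in the sources used here. The deposited estimated counts are not normalized, and the deposited FPKM of the authors are scaled by transcript length and library size. Columns named Knockdown hold the *Npr1*+/- libraries. The authors' genotype means were not used.

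Estimated counts were rounded and fitted in R 4.3.3 with edgeR 4.0.16 (TMM, filterByExpr with a minimum count of 10, quasi-likelihood test), with Benjamini-Hochberg adjustment over the 13938 genes tested. Total estimated counts ranged from 13510970 to 16664343 per library. Scaled by these totals alone, without the TMM factor, 3 counts, the floor used here, equal 0.18 to 0.222 CPM. Floors cover counting error only. Symbols came from RefSeq GRCm38.p6 (18070 of 18191 genes matched) and gene coordinates from GENCODE M21. Ratios of *Itgb4* to partners used log2 CPM with a prior count of 2 and exact two-sided permutation tests. Libraries with the same number deviated together from their group means across genes (correlations of 0.645, 0.386 and 0.235), so fits with the replicate number as a block were also made, while the main fit and the permutation tests are unpaired. This pairing comes from the labels' numbers and these correlations alone. WT library 3 correlated better with *Npr1*+/- library 2 (0.445), and *Npr1*+/- library 3 better with WT library 2 (0.371). The correlations thus did not match libraries 2 and 3 by their number. Alternatives were DESeq2 1.42.0, its size factors, no filter, limma 3.58.1 on log2(FPKM + 0.1) or log2(FPKM + 1), the replicate block in edgeR and in DESeq2, and leaving out libraries. Scaling by endothelial markers was added after seeing the data. Scripts were tested on simulated data.

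The members, the 7 pathway lists and the 11 marker lists were chosen with earlier results of these data known. Named genes are all members, *Npr1*, pathway genes that were called or had non-overlapping groups with an unadjusted p under 0.05, the 2 of each list with the highest mean FPKM, the 5 genes most like *Itgb4*, and markers. Another gene of the rule is not reported here.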

Additional observations from a re-analysis of the deposited data

How the results depend on the processing

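Over the alternatives to the members' log2 fold changes, 104 values kept their direction and side of the threshold, 1 became significant and 9 turned their sign. The count of genes called, 0 in edgeR, was 268 in DESeq2 with the replicate block, 15 in DESeq2 and 1 without both libraries numbered 1, which was *Gm14434*. DESeq2 with the replicate block was the only alternative that called a member (1, *Itgb4*, log2 fold change 1.28) or genes of the pathway lists (2), and the block in edgeR changed no call. Leaving out single libraries moved *Itgb4* between 0.98 and 1.59 and turned the sign of *Itga6* (-0.13 to 0.76), *Plec* (-0.10 to 0.22), *Cd151* (-0.09 to 0.06) and *Lama5* (-0.38 to 0.10). *Cd151* was also positive, at 0.02, without both libraries numbered 1, and *Itga6* was at -0.27 per endothelial marker CPM. The cause of these turns was not tested. All 72 alternatives of the ratios of *Itgb4* to its partners kept their direction, but leaving out 1 library moved 6 of the 8 by over 1.5 times, the ratio to *Lamb3* most, from 0.76 to 0.18. With 3 libraries a genotype, the exact test of the ratios could not reach a p under 0.1, and *Col17a1* and *Lamb3* were limited by their counts.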
